A study of Oryza sativa with 6 samples.

Results

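Seeds store protein for the seedling, and the genes described here encode the main storage proteins of rice endosperm together with a pair of seed allergens. They were chosen by name alone, as every gene whose symbol or synonym names a glutelin, a prolamin, a seed globulin or the seed allergenic proteins RAG1 or RAG2. The rule named 10 genes, of which 9 of the 17905 genes with a probe set of their own could be measured. These were the 6 glutelin genes *GLUA-1*, *GLUA-2*, *GLUA-3*, *GLUB-4*, *GLUB-5* and *GLUD-1*, the prolamin gene *PROLM25*, and *RAG1* and *RAG2*, with 15 probe sets between them. The glutelin gene *GLUB-2* had no probe set of its own in the array annotation, and no gene was taken to be a seed globulin.

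Whole seeds of the indica rice variety PB1 at the S3 stage, 5 to 10 days after pollination, were compared on 6 Affymetrix rice genome arrays. The 3 MADS29 RNAi samples came from plants with a construct that silences *OsMADS29*, a MADS-box gene of the B-sister class active in seeds, and the 3 WT samples came from wild-type plants of the same variety. The labels do not tie a sample to a plant or to a transformed line, so every p-value reflects variation among these 6 samples, which may be technical. The promoter of the construct is not given in the sources used here. The question asked of these genes is how far their transcripts changed on silencing of *OsMADS29*.

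Glutelins are the most abundant storage proteins of rice. They are made as precursors in the endoplasmic reticulum, carried to the storage vacuole and cleaved there into an acidic and a basic subunit. Prolamins stay in the endoplasmic reticulum and form protein bodies of their own. RAG1 and RAG2 belong to the alpha-amylase/trypsin inhibitor family, small disulfide-rich seed proteins known as rice allergens. In the RefSeq gene table *RAG1* and *RAG2* lie next to each other on 1 chromosome with 0 genes between them, and so do *GLUB-5* and *GLUB-4*.

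*OsMADS29* itself had log2 signals of 5.17, 5.11 and 4.90 in MADS29 RNAi seeds, against 7.16, 6.60 and 7.30 in WT seeds. It was 3.89-fold lower (log2 difference −1.96 ± 0.21 (SE), limma adjusted p = 0.00725), as the labels imply. Across probe sets, which are no replicates, arrays correlated at r = 0.990 to 0.998 within a group and 0.955 to 0.963 between groups. On WT replicate 2 and MADS29 RNAi replicate 1 the 5′ end of actin was at background (2.33 and 2.75 on the log2 scale), against 5.86 to 6.42 on the other 4 arrays, so results are given with these arrays and, where it matters, without them. Of the defining markers, the 5 genes of starch synthesis in the endosperm were all above background, and of 3 leaf, root or anther genes that whole seeds should lack, *OsC6* and *RTS* were at background on all 6 arrays and *OsNIP2;1* was above it on all 6, with means of 4.52 in MADS29 RNAi seeds and 3.86 in WT seeds.

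Both allergen genes, the prolamin gene and 3 of the 6 glutelin genes were higher in MADS29 RNAi seeds, *RAG1* by far the most and the glutelin genes by small amounts. Of the 9 genes, each read by its brightest probe set, 6 rose and 0 fell at a limma adjusted p under 0.05, and 9 were positive, although *GLUD-1* turned negative (−0.14) with quantile normalization and *GLUB-4* was at background on all 6 arrays. Over all 17905 genes 9316 were positive. Of all genes read the same way, 25.7% were called, 10.8% higher and 14.8% lower. Among all 17905 genes, 3977 were at background on all 6 arrays. In a fit of only the 20192 probe sets above background on average, 8578 were called (3422 higher and 5156 lower). There 6 of 8 storage protein genes were called, all higher. The median log2 difference was 0.49 over the 9 genes and 0.01 over all genes. The groups did not overlap for 8 of the 9 genes, *GLUB-4* at background included, as for 59.1% of all genes (32.2% with MADS29 RNAi higher). An exact permutation test on each gene, two-sided, gave p = 0.10 for these 8 genes, the smallest that 3 arrays against 3 allow, and p = 0.20 for *GLUD-1*. A change in the number of cells of a type and a change in RNA per cell cannot be told apart in whole seeds.

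**Figure D1:**
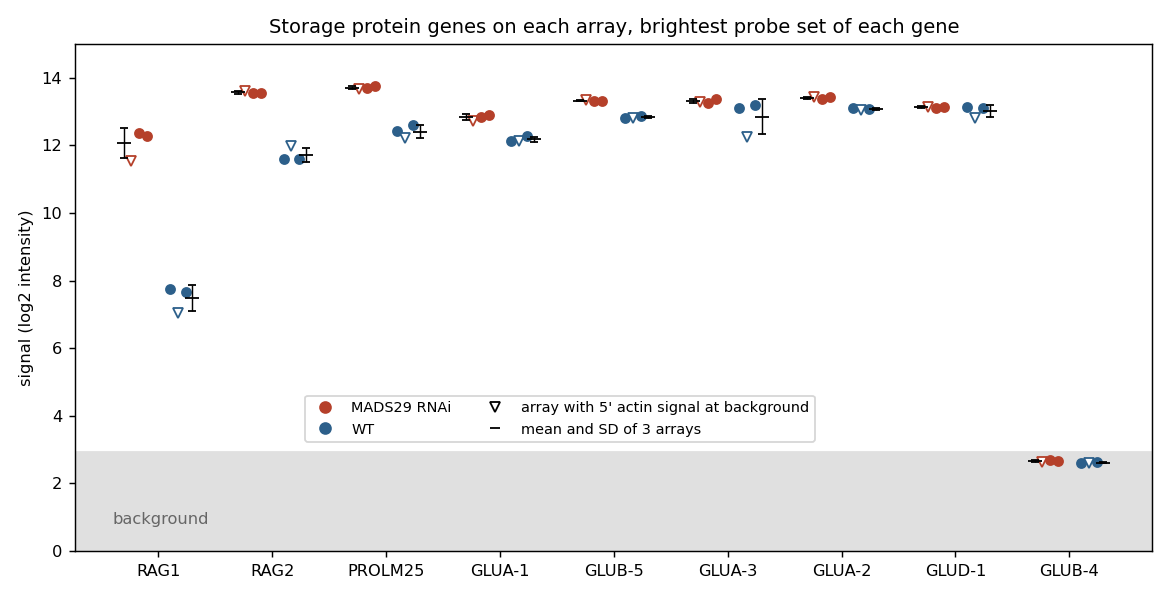
Signal (log2 intensity) of the 9 storage protein genes on each array, MADS29 RNAi left of WT, with the mean and SD of 3 arrays in black. Open triangles mark the arrays with the 5′ actin signal at background, and the grey band covers values up to the highest background level of the 6 arrays. The *RAG1* groups lie about 4.58 apart and those of *GLUD-1* overlap.

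*RAG1* (gene ID 4342722) changed most. Its brighter probe set had log2 signals of 11.55, 12.36 and 12.28 in MADS29 RNAi seeds, against 7.76, 7.04 and 7.67 in WT seeds. Every MADS29 RNAi array lay far above every WT array, and within each group the lowest array was the one with the 5′ actin signal at background. The means were 12.06 ± 0.45 in MADS29 RNAi seeds and 7.49 ± 0.39 in WT seeds (SD, n = 3 each). The difference was 4.58 ± 0.32 (SE), or 23.9-fold, with a limma adjusted p of 0.00201, and it ranked at place 21 among the 17905 genes by size of rise. MADS29 RNAi replicate 1 lay −0.774 from the mean of the other MADS29 RNAi arrays, and WT replicate 2 lay −0.675 from the mean of the other WT arrays. With both left out, the difference was 4.61 ± 0.05 (adjusted p = 0.00266).

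The second probe set of *RAG1* gave little signal. It gave 3.13, 2.93 and 3.13 in MADS29 RNAi seeds and 2.80, 2.52 and 2.77 in WT seeds, just above a background level of 2.81 to 2.91 on the MADS29 RNAi arrays and near one of 2.76 to 2.78 on the WT arrays. The groups did not overlap, but the difference of 0.36 ± 0.10 was not called (adjusted p = 0.099). The 23.9-fold rise therefore rests on 1 probe set, which is not of a kind shared with related transcripts.

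*RAG2* (gene ID 4342723), the neighbour of *RAG1*, was higher by 3 of its 4 probe sets. The brightest, of the s_at kind, read 13.61, 13.54 and 13.55 in MADS29 RNAi seeds, against 11.60, 11.97 and 11.58 in WT seeds. The difference of 1.85 ± 0.12 (SE, 3.61-fold, adjusted p = 0.00162) was the smallest of the 3. One x_at probe set read 12.44, 12.93 and 12.83 in MADS29 RNAi seeds, against 10.46, 10.01 and 10.43 in WT seeds, a difference of 2.43 ± 0.19 (5.39-fold, adjusted p = 0.00283). The other x_at probe set read 12.17, 12.30 and 12.57 in MADS29 RNAi seeds, against 10.10, 9.88 and 10.21 in WT seeds, a difference of 2.28 ± 0.14 (4.87-fold, adjusted p = 0.00149). All 3 separate the groups fully. WT replicate 2 was the highest WT array by the brightest probe set and the lowest by the other 2, so the probe sets disagree on how that array sits within its group. The remaining probe set was at background on all 6 arrays (2.19 to 2.20).

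The top of the measured range bears on these sizes. The highest value of any probe set was 13.77 to 13.83 on the MADS29 RNAi arrays and 13.96 to 13.97 on the WT arrays. The brightest *RAG2* probe set lay 0.214 to 0.262 below that top in MADS29 RNAi seeds and 1.99 to 2.39 below it in WT seeds. *RAG1* lay 1.44 to 2.28 below it in MADS29 RNAi seeds and 6.21 to 6.92 below it in WT seeds. In MADS29 RNAi seeds the brightest probe sets of *GLUA-2*, *GLUA-3*, *GLUB-5* and *GLUD-1* lay 0.35 to 0.703 below it, and in WT seeds 0.777 to 1.72. Whether signals near the top are compressed was not tested, for the glutelin genes as for the others.

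*PROLM25* (gene ID 4342688), for a prolamin, rose by similar amounts with both probe sets. The brighter one read 13.67, 13.69 and 13.77 in MADS29 RNAi seeds, against 12.43, 12.21 and 12.59 in WT seeds. The dimmer one read 13.60, 13.59 and 13.62 in MADS29 RNAi seeds, against 12.31, 12.48 and 12.26 in WT seeds. Both probe sets put every MADS29 RNAi array above every WT array. The differences were 1.30 ± 0.11 (SE, 2.46-fold, adjusted p = 0.00328) and 1.25 ± 0.06 (2.39-fold, adjusted p = 0.000869). On MADS29 RNAi replicate 3 the brighter one held the highest value on the array, 0 below the top. Both are of the x_at kind, which related transcripts can also bind, and prolamins form a large family of near-identical genes.

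The measured differences of the glutelin genes were small. Of the 6 genes, 3 rose, 0 fell and 3 were not called, with a median log2 difference of 0.39. *GLUA-1* (gene ID 4327027) read 12.73, 12.84 and 12.91 in MADS29 RNAi seeds, against 12.12, 12.13 and 12.27 in WT seeds. It rose by 0.65 ± 0.07 (SE, 1.57-fold, adjusted p = 0.00589). *GLUB-5* (gene ID 4328968) read 13.33, 13.32 and 13.33 in MADS29 RNAi seeds, against 12.82, 12.81 and 12.87 in WT seeds. It rose by 0.49 ± 0.02 (1.40-fold, adjusted p = 0.000407), and its arrays were the tightest of the called genes, with SDs of 0.01 and 0.03. *GLUA-2* (gene ID 4348563) read 13.42, 13.38 and 13.42 in MADS29 RNAi seeds, against 13.10, 13.03 and 13.09 in WT seeds. It rose by 0.33 ± 0.02 (1.26-fold, adjusted p = 0.0021).

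Of these rises, that of *GLUA-2* lost its call under another scaling, and those of *GLUA-1* and *GLUB-5* became smaller but stayed called. With quantile normalization, which gives all arrays the same spread of values, *GLUA-1* was still higher by 0.53 (adjusted p = 0.0176), *GLUB-5* was higher by 0.24 (adjusted p = 0.000359) and *GLUA-2* by 0.05, no longer called (adjusted p = 0.343). With arrays centred on their medians the 3 genes stayed called, at 0.64, 0.47 and 0.31. The array medians (2.60 to 2.63) lay under the background levels (2.76 to 2.91), so this centring says little about the scaling of bright signals. The median over the 9 storage protein genes was 0.24 with quantile normalization. There *RAG1*, *RAG2* and *PROLM25* stayed at 4.56, 1.63 and 1.19.

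*GLUA-3* and *GLUD-1* did not pass the test. *GLUA-3* (gene ID 4333164) read 13.30, 13.25 and 13.39 in MADS29 RNAi seeds, against 13.11, 12.24 and 13.20 in WT seeds. Its difference of 0.46 ± 0.28 (adjusted p = 0.283) drew most of its size from WT replicate 2 and was 0.15 ± 0.05 without that array (adjusted p = 0.191), though the groups did not overlap either way. *GLUD-1* (gene ID 4328877) read 13.13, 13.10 and 13.15 in MADS29 RNAi seeds, against 13.13, 12.82 and 13.10 in WT seeds. Its groups overlapped, and the difference was 0.11 ± 0.09 (adjusted p = 0.374), or 0.01 without WT replicate 2.

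*GLUB-4* (gene ID 4328969) could not be assessed. Its probe set was at background on all 6 arrays, at 2.63, 2.69 and 2.65 in MADS29 RNAi seeds and 2.61, 2.61 and 2.62 in WT seeds, and no fold is given. The second probe set of *GLUA-2* lay just above background at 2.97 to 3.27 in MADS29 RNAi seeds and 2.79 to 3.04 in WT seeds, and the groups overlapped. *RAG1*, *RAG2* and *GLUA-2* thus each had a probe set near or at background beside a bright one.

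Of all 15 probe sets, 9 were called higher and 0 lower, against 11.3% called (5.07% higher and 6.28% lower) among the 57194 tested. Many of those tested gave no signal, and a fit of only the 20192 above background on average called 8578. Apart from the brighter probe set of *RAG1*, every called one was of the x_at, s_at or a_at kind, names that mark probe sets able to bind several transcripts. With such probe sets left out, 1 of 6 genes was called, namely *RAG1*. *RAG2* and *GLUA-2* were then read by their dim probe sets, and *GLUA-1*, *GLUB-5* and *PROLM25* had none left.

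**Figure D2:**
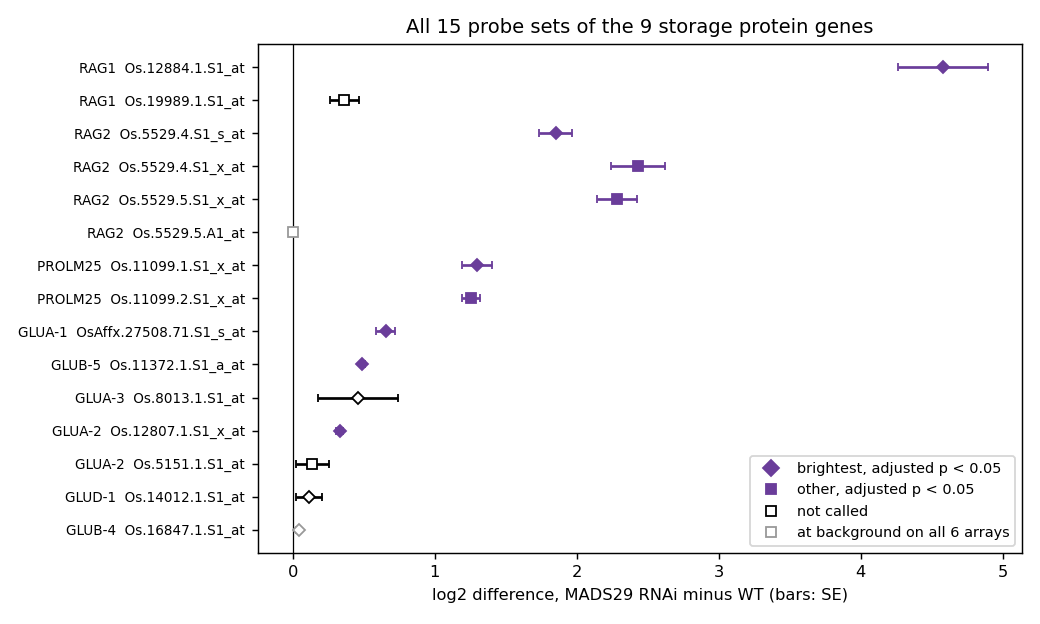
Log2 difference (MADS29 RNAi minus WT) of each of the 15 probe sets with its SE, ordered by gene. Diamonds are the brightest probe set of a gene and squares the others, filled where they passed the test and grey where at background on all 6 arrays. *RAG1* stands at 4.58 by its bright probe set and at 0.36 by its dim one.

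The genes are set out by the size of their difference, and how far neighbours in that order lie apart is given as a description, since the order comes from the same differences. The difference of *RAG1* exceeded that of *RAG2* by 2.73 ± 0.45 (SE), that of *RAG2* exceeded *PROLM25* by 0.55 ± 0.24, and that of *PROLM25* exceeded *GLUA-1* by 0.64 ± 0.09. *GLUA-2* exceeded *GLUD-1* by 0.22 ± 0.08. In these 4 pairs the gaps between the probe sets of the pair on the MADS29 RNAi arrays did not overlap those on the WT arrays. For *RAG2* and *PROLM25* they nearly met, with a lowest MADS29 RNAi gap of −0.219 and a highest WT gap of −0.238. With 3 arrays a group this does not settle the order. *GLUA-1* and *GLUB-5* (0.16 ± 0.06), *GLUB-5* and *GLUA-3* (0.03 ± 0.30) and *GLUA-3* and *GLUA-2* (0.13 ± 0.29) had overlapping gaps, so their order lies within the spread between arrays. *GLUB-4*, at background, has no place in the order.

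**Figure D3:**
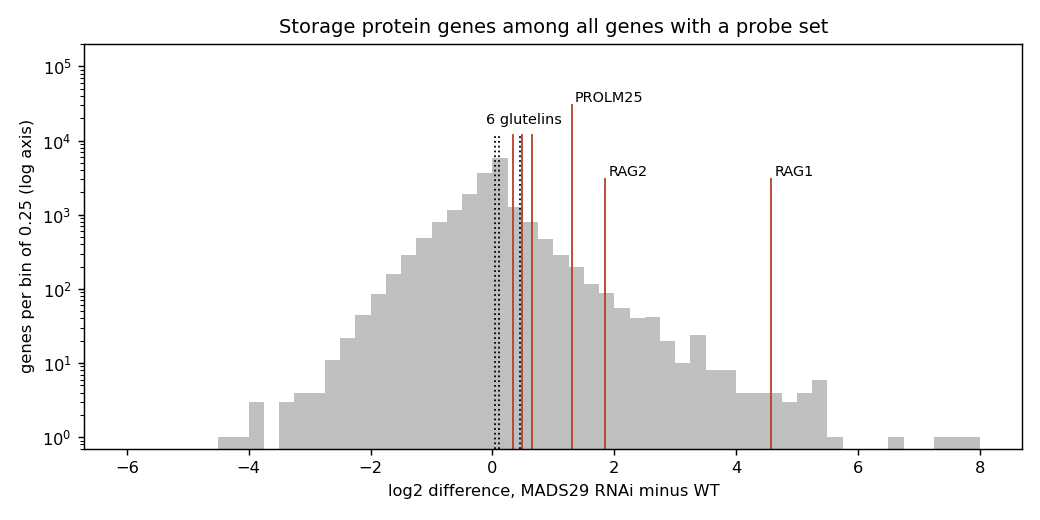
Number of genes (log axis) by log2 difference (MADS29 RNAi minus WT) for the 17905 genes by their brightest probe set, with the 9 storage protein genes as lines, red where called and dotted black where not. *RAG1* lies far out on the right at place 21, *RAG2* at place 287 and *PROLM25* at place 588. The 6 glutelin genes lie closer to a difference of 0. The called ones, *GLUA-1*, *GLUB-5* and *GLUA-2*, are at places 1660, 2236 and 2985, and *GLUB-4* is at background.

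The genes most like *RAG1* were sought among 2424 genes with a name, by the smallest root mean square distance between centred log2 profiles over the 6 arrays. As the groups differ so widely, this measure mainly finds genes with a rise of similar size. They were *OsPM19L1* (distance 0.431), *OsPP2C27*, for a protein phosphatase of the 2C class (0.524, difference 3.74), *Agglutinin*, for a lectin (0.618), *CPDK2* (0.631, difference 3.82), and *GER1* (0.636). *OsPP2C27* read between 7.13 and 7.36 in WT seeds, while the WT means of *OsPM19L1*, *Agglutinin* and *GER1* (2.64, 2.59 and 2.56) lay under the background level, so their rises have no measured size and their distances are only a guide. *CPDK2* read 2.77, 3.19 and 2.76 in WT seeds, with background at 2.76 to 2.78 and 1 WT array not above it. The size of its difference is therefore uncertain too.

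Transcription factors of storage genes were measured for 5 genes, of which 2 rose and 0 fell, with a median log2 difference of 0.25. Among all genes 10.8% were higher and 14.8% lower. Of the 20192 probe sets above background on average, fitted alone, 3422 were higher and 5156 lower. *RISBZ5*, for a bZIP factor of the family that includes activators of storage genes, read 7.72, 7.52 and 7.57 in MADS29 RNAi seeds, against 5.38, 5.93 and 5.79 in WT seeds. It rose by 1.90 ± 0.16 (SE, adjusted p = 0.00366). *OsVP1*, for a B3 factor of seed maturation, read 6.25, 6.07 and 6.06 in MADS29 RNAi seeds, against 5.10, 5.34 and 5.04 in WT seeds, a rise of 0.97 ± 0.10 (adjusted p = 0.00658). Both genes separated the groups. The endosperm factor gene *NF-YB1* differed by 0.02 ± 0.04, *TRAB1*, for a bZIP partner of VP1, by 0.24 ± 0.08 and the B3 factor gene *OsLFL1* by 0.25 ± 0.13, none of them called. *RISBZ1* and *RPBF*, which encode well-known activators of glutelin and prolamin genes, had no match by name and are not analysed here.

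Genes for protein folding in the endoplasmic reticulum moved both ways, with 3 of 15 higher, 4 lower and 3 at background on all 6 arrays (median −0.03). Among all genes, many of them at background, 10.8% were higher and 14.8% lower. In the fit of only the 20192 probe sets above background on average, 3422 were higher and 5156 lower. There 10 of 21 genes of the 3 pathway lists were called, 6 higher and 4 lower. *OsbZIP60* and *OsbZIP50*, for transcription factors of the response to misfolded protein, rose by 0.83 ± 0.07 (adjusted p = 0.00294) and 0.80 ± 0.14 (adjusted p = 0.0276). *BiP1*, for the main Hsp70 chaperone of the compartment, rose by 0.17 ± 0.03 (adjusted p = 0.0396), with signals of 11.89 to 11.92 in MADS29 RNAi seeds and 11.67 to 11.78 in WT seeds. *CRO1*, for calreticulin, read 10.44, 10.55 and 10.36 in MADS29 RNAi seeds, against 11.32, 11.27 and 11.34 in WT seeds, and fell by 0.86 ± 0.05 (adjusted p = 0.00153). The disulfide isomerase genes *PDIL2-2* and *PDIL1-1* fell by 0.93 ± 0.06 (adjusted p = 0.00173) and 0.29 ± 0.04 (adjusted p = 0.0116). *PDIL5-1* was also lower, at −0.68 ± 0.13 (adjusted p = 0.035).

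Of 4 genes for vacuolar transport and cleavage of storage proteins, 2 rose and 0 fell, with a median of 0.44. The same shares of all genes apply (10.8% higher, 14.8% lower). So do the counts above background (3422 higher and 5156 lower of 20192 probe sets). *OsVPE1*, for the vacuolar processing enzyme that cleaves glutelin precursors, read 10.28, 10.35 and 10.32 in MADS29 RNAi seeds, against 9.20, 9.19 and 9.18 in WT seeds, a rise of 1.13 ± 0.02 (SE, adjusted p = 0.000104). Only its brightest probe set is given, of the s_at kind like that of *OsbZIP60*. Those of *OsVP1* and *CRO1* are of the a_at kind. *RAB5A*, for a small GTPase that directs glutelin precursors to the storage vacuole, read 8.50, 8.23 and 8.48 in MADS29 RNAi seeds, against 7.39, 7.57 and 7.52 in WT seeds. It rose by 0.91 ± 0.09 (adjusted p = 0.00653). *VPS9A*, for the exchange factor of RAB5A, differed by −0.27 ± 0.16 and *GPA3* by −0.03 ± 0.12, and neither passed the test.

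**Figure D4:**
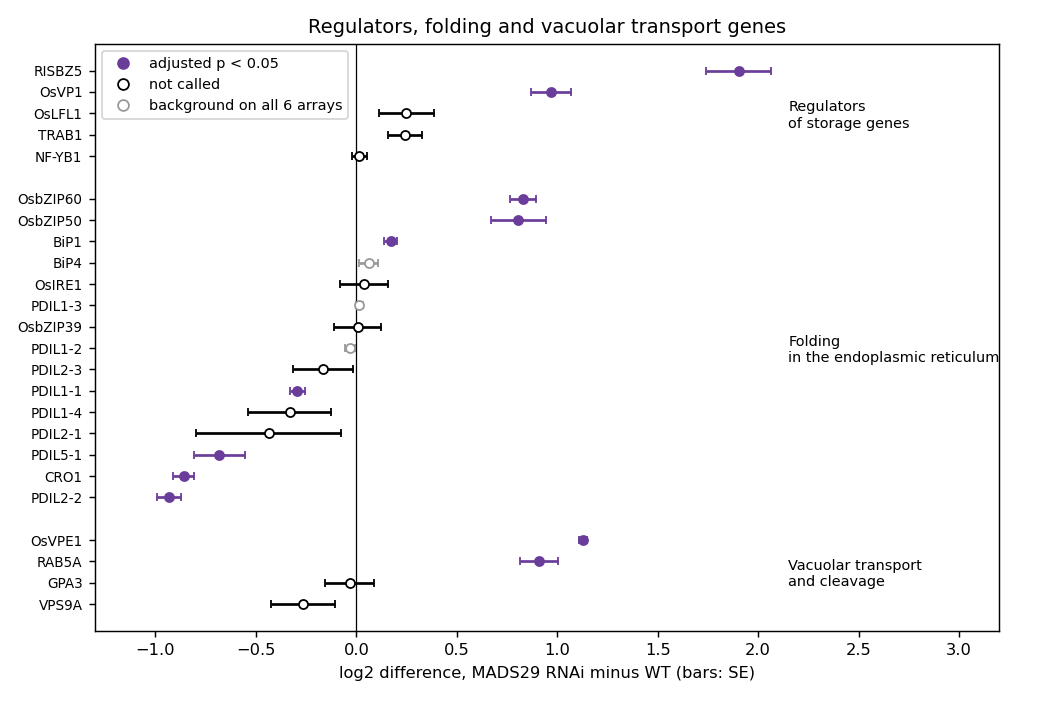
Log2 difference (MADS29 RNAi minus WT) with its SE for the 5 regulator genes, 15 folding genes and 4 vacuolar transport genes, each by its brightest probe set. Filled symbols passed the test, grey ones were at background on all 6 arrays. *RISBZ5* stands highest at 1.90 and *PDIL2-2* lowest at −0.93.

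The marker lists of seed tissues did not all move one way. Among all genes 10.8% were called higher and 14.8% lower. In the fit of only the 20192 probe sets above background on average, 3422 were called higher and 5156 lower. In the starchy endosperm list 2 of 5 genes rose and 0 fell, namely *SBE1* (0.31 ± 0.03) and *SSI* (0.77 ± 0.08), and the summed signal of the list was 25400 to 26600 in MADS29 RNAi seeds and 21600 to 24000 in WT seeds. In the embryo and oil body list 3 of 5 genes rose and 0 fell, namely *RAB21*, *EM* and *PXG* by 7.51, 3.46 and 3.14, and the sum was 5080 to 5280 in MADS29 RNAi seeds and 351 to 435 in WT seeds. The other embryo genes, *OSH1* and *ROC1*, differed by −0.11 ± 0.06 and −0.34 ± 0.18. In MADS29 RNAi seeds the embryo sum consists mostly of *RAB21* and *EM* (means of 11.11 and 11.17). It does not speak for that list as a whole. Of 3 genes of the green outer layers, *OsrcaA1* rose by 1.80, *CAB2R* was lower at −1.20 and *RBCS* differed by −0.23 ± 0.08, not called. The sums were 4450 to 4790 in MADS29 RNAi seeds and 8190 to 8660 in WT seeds. They consist mostly of *CAB2R* (means of 11.75 and 12.95) and do not speak for the list as a whole. Of 3 leaf, root or anther genes, the root silicon transporter gene *OsNIP2;1* rose by 0.66, with sums of 31.8 to 37.7 in MADS29 RNAi seeds and 25 to 27 in WT seeds. The part of tissue makeup in the storage gene differences was not tested.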

How the data were processed

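The authors deposited 1 table of linear probe set intensity values for 57381 probe sets on 6 arrays (3.98 to 16101, column medians 6.05 to 6.18). How the authors corrected, summarized and normalized them is not given in the sources used here. They were taken as deposited and moved to the log2 scale. After 187 control probe sets were left out, 57194 entered 1 linear model per probe set, without a block (lmFit and eBayes of limma 3.58.1, run under R 4.3.3), with Benjamini-Hochberg adjustment, called at an adjusted p under 0.05. The script was checked on simulated data.

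The array annotation paired 22436 tested probe sets with 1 gene, 95 with several (not named) and 34663 with none. All 17905 genes were found by ID in the RefSeq table of assembly ASM3414082v1, used for names and neighbours only. Each gene was read by the probe set brightest over the 6 arrays.

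Background was the 95th percentile of 81 probe sets foreign to rice on each array. The members, lists and alternatives were chosen with earlier results of these data known. Text names all members, *OsMADS29*, up to 3 called genes per list and direction by smallest adjusted p, and the 5 genes nearest to *RAG1*. *PDIL5-1* and the list genes that were not called were named after their values were seen. The synonym GPA1 also names a G protein gene, which was kept out of its list. The synonyms GLB and GLB1 were not taken to name a seed globulin. Precision is limited by the number of arrays.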

Additional observations from a re-analysis of the deposited data

How the results depend on the processing

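Of the 9 storage protein genes, 6 were called, all higher, under each alternative for that count except these: 5 with quantile normalization (*GLUA-2* lost), 5 with the replicate number as a block, and 1 of 6 without x_at, s_at and a_at probe sets. All 15 probe sets counted singly gave 9. *GLUD-1* reversed with quantile normalization (−0.14, adjusted p = 0.413), and *GLUB-4* was called with values floored at background (0.10, adjusted p = 0.039), where its value is the background level itself. Leaving out 1 array at a time kept the count at 6. The 6490 called probe sets (2901 higher, 3589 lower) became 3596 to 5475 (1499 to 2490 and 2097 to 3191), with 3912 without WT replicate 1, 3596 without WT replicate 3 and 4288 without MADS29 RNAi replicate 2, and the 11 called in the pathway lists became 8 to 10 (7 higher becoming 5 to 7, 4 lower becoming 2 to 4, with 2 lower without WT replicate 3). Array weights gave 4765 higher. With the replicate block 2140 probe sets were called (997 higher, 1143 lower), 4 in the pathway lists (2 and 2), and *RAG1* was not (4.58, adjusted p = 0.0557). Same-numbered arrays did not deviate together (r = −0.538, −0.538 and 0.43 over 20192 probe sets), 1 of 3 fitted its own number best, and the numbers were not taken to pair samples. MADS29 RNAi replicate 1 and WT replicate 2, the arrays with the 5′ actin signal at background, had r = 0.673. With the 5′ actin class as a block, *RAG1* was higher by 4.58 ± 0.04 (limma adjusted p = 0.000186). Adding genes by product was not run, because the tables used here give no products, and promoter motifs were not analysed here.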

Other observations

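*RA5*, another seed allergen gene close to *RAG1* and *RAG2* in the RefSeq table, lay outside the rule and was picked after its values were seen. Its probe set read 12.46, 12.93 and 12.88 in MADS29 RNAi seeds, against 12.28, 11.82 and 12.28 in WT seeds. The groups did not overlap, and the log2 difference of 0.63 ± 0.20 (SE) was not called (limma adjusted p = 0.124).

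The annotation pairs 3 more probe sets with several genes that include a glutelin gene, so none of them is assigned to a gene. The one paired with 3 genes read 13.06, 13.08 and 12.97 in MADS29 RNAi seeds, against 12.24, 11.91 and 12.20 in WT seeds, and was higher by 0.92 ± 0.10 (adjusted p = 0.0079). Of those paired with 2 genes, one was higher by 0.37 ± 0.07 (adjusted p = 0.0396). The other differed by 0.49 ± 0.29 and was not called (adjusted p = 0.268), with 12.06 on WT replicate 2 against 12.90 and 13.03 on the other WT arrays.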
